A study of Homo sapiens with 22 samples.

Results

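The genes described here encode the nuclear lamina and the inner nuclear membrane proteins bound to it. They are LMNA, LMNB1, LMNB2, LBR, TMPO, EMD, LEMD3, BANF1, SUN1 and SUN2, a list of 10 symbols taken from the 59087 gene names of each count table in view of nuclear condensation, and all 10 passed the filter on low counts in both experiments. They were measured by RNA-Seq in HUDEP-2, an immortalized human erythroid progenitor line that is expanded in culture (D0) and then matured by a change to differentiation medium (D6). The H2A.X experiment compared 2 H2A.X WT replicates with 3 H2A.X KO replicates, and the BAZ1B experiment compared 3 BAZ1B WT with 3 BAZ1B KO replicates, 22 libraries in all with D0 and D6 counted apart. Per the methods, the KO cells came from CRISPR/Cas9 deletions, which removed the reading frame of the histone variant H2A.X or the first exon of BAZ1B, a kinase that phosphorylates H2A.X on a tyrosine. Cells carrying both guides were sorted, plated at limiting dilution and screened for homozygous deletions, so a KO line is a subclone of 1 parental line, and the WT cells are also described as subclones. No agent other than the culture media is named for any group.

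The lamina is a mesh of A-type lamins (from LMNA) and B-type lamins (from LMNB1 and LMNB2) that lines the inner nuclear membrane and anchors heterochromatin. LBR, TMPO, EMD and LEMD3 encode membrane proteins that hold chromatin to this mesh, partly through BANF1, a small DNA-binding protein, and SUN1 and SUN2 reach across the envelope to the nesprins and the cytoskeleton. In maturing erythroblasts the nucleus shrinks, chromatin condenses and the nucleus is finally expelled, while caspases, among them the lamin A-cleaving CASP6, are known to act on the lamina.

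Total counts per library ranged from 11910141 to 21013004 in the H2A.X experiment and from 33199408 to 41273244 in the BAZ1B experiment, and the 10 genes together took 0.182 to 0.245% of the counts of any library. Reads on H2AFX, the older symbol of H2AX, were lower in H2A.X KO than WT by a log2 fold change of -1.5 at D0 and -1.52 at D6, and reads on BAZ1B were lower in BAZ1B KO by -0.40 and -0.38, where reads from outside the deleted stretch are still counted. Of 11 erythroid marker genes, 10 or 11 had at least 10 reads in a library of every group, and the 3 fibroblast collagens had fewer than 10 everywhere. In the H2A.X experiment the KO and WT libraries also differed in ways other than single genes: 5 of the 6 KO column names and no WT column name carried the word Redo, and across genes the KO over WT change correlated with transcript length (Spearman 0.50 at D0 and 0.55 at D6, across 12017 genes that share libraries, a description only), against -0.027 and 0.044 in the BAZ1B experiment. These values stand beside each H2A.X result, and their part in it was examined only through a correction for length and GC content. For genes called between KO and WT, its outcome is given below for LMNA, BANF1, TMPO, LBR and LEMD3. It is not given for LMNB1 or for single genes of the other lists. At D0, where all KO libraries carry the word Redo, that word and the genotype cannot be told apart. At D6 KO replicate 3 does not carry it.

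To set the 10 genes side by side, levels were expressed per length of the longest annotated transcript, as FPKM (counts per kilobase of transcript, scaled by the normalized library size). In WT cells of the BAZ1B experiment at D0, LMNA was the most abundant at 171 ± 4.58 FPKM (SD, n = 3). TMPO (85.3 ± 2.43) and LMNB1 (83.3 ± 0.677) came next with overlapping libraries. LBR (73.2 ± 0.18), BANF1 (72.1 ± 0.972) and LMNB2 (71.2 ± 1.34) formed a group in which neighbours overlapped, followed by EMD at 56.7 ± 2.73. The lowest levels were those of SUN1 (12.6 ± 0.891), LEMD3 (11 ± 0.217) and SUN2 (5.46 ± 0.214), whose libraries did not overlap. At D6 in the same WT cells the first place was shared, with TMPO at 135 ± 1.69 and LMNA at 127 ± 5.88 and overlapping libraries. LMNB1, at 62.3 ± 1.29, had moved from the third place to the seventh. In the H2A.X experiment LMNA also led in WT, at 215 ± 33.5 FPKM at D0 and 203 ± 14.9 at D6 (n = 2), whereas in H2A.X KO at D6 TMPO (155 ± 29.7), LBR (132 ± 27.6) and LMNA (109 ± 17.1) followed each other with overlapping libraries (n = 3). The order depends on the length used. Divided by the union of annotated exons, LMNB1 held 36.8% and LMNA 35.0% of the summed lamin level in BAZ1B-experiment WT at D0. At D6 in these cells LMNB2 held 35.0%, LMNB1 33.4% and LMNA 31.6%.

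**Figure D1:**
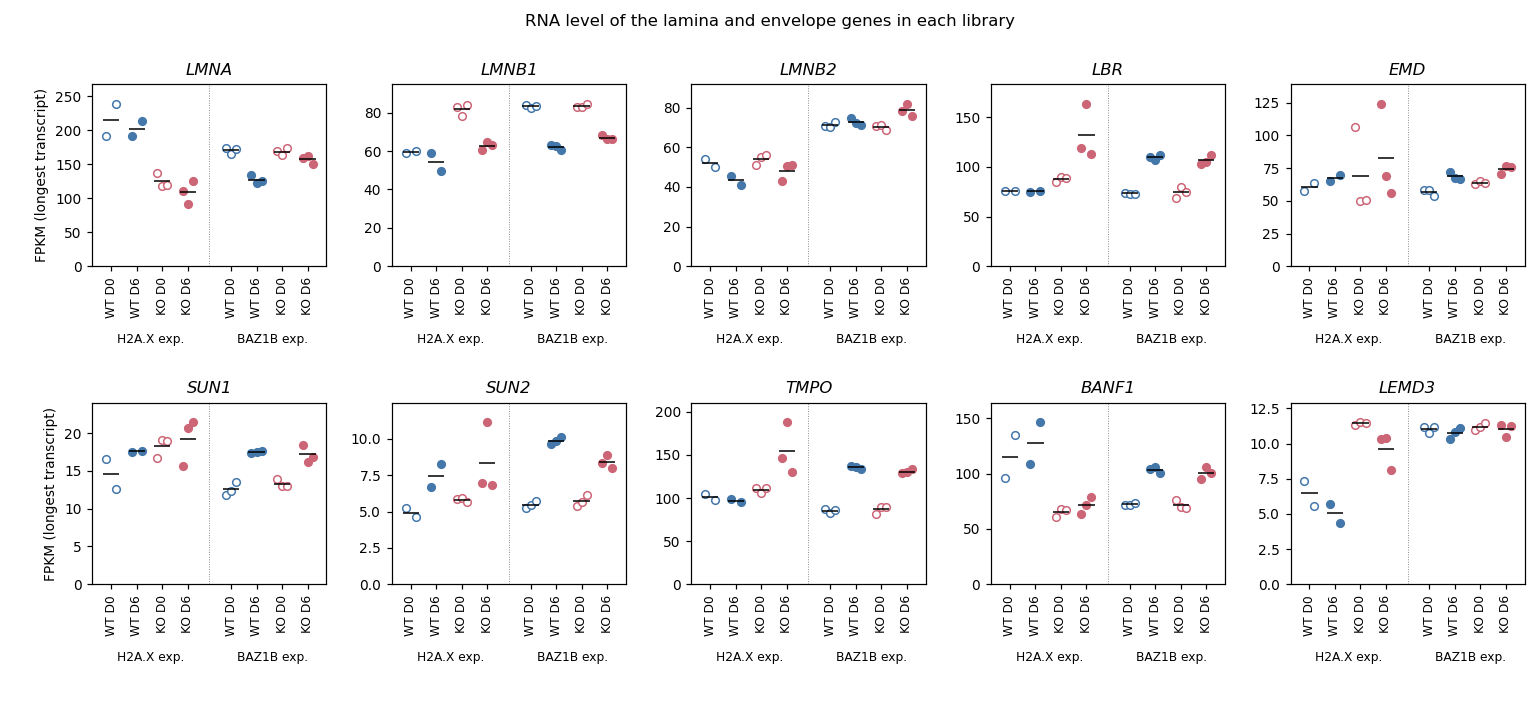
FPKM (longest transcript, vertical axis from 0) of each of the 10 genes in every library, by genotype and day, with the H2A.X experiment to the left and the BAZ1B experiment to the right of the dotted line. Open points are D0, filled points D6, blue WT, red KO, and bars are group means; the experiments were normalized separately. LMNA of the H2A.X experiment is lower in every KO than in every WT library, and 1 KO library at each day stands far above the others for EMD.

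The first question was how the lamina genes changed as the cells matured. In WT cells of the BAZ1B experiment, 6 of the 10 genes rose between D0 and D6, 2 fell and 2 did not pass the test (edgeR quasi-likelihood test, Benjamini-Hochberg adjusted p below 0.05 over all 13879 genes). The median log2 fold change of the 10 was 0.38. In that comparison 68.9% of all genes tested were called, 33.5% up and 35.4% down, so that 8 calls among 10 genes is not far from the share of all genes. In BAZ1B KO cells 7 rose, 1 fell and 2 did not pass, beside 67.7% of all genes called, 33.2% up and 34.5% down. Since each library is a bulk culture, fewer transcripts per cell and fewer cells with the transcript cannot be told apart.

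Both the A-type lamin and the first B-type lamin fell in maturing WT cells of the BAZ1B experiment. LMNA had normalized counts of 23658, 22477.5 and 23412 in the WT libraries at D0 and of 18191, 16676 and 16997 at D6. Every D6 library lay below every D0 library, as groups of libraries did not overlap for 78.0% of all genes in this comparison. The log2 fold change was -0.42 (SE 0.0437, adjusted p = 1.77e-06 by edgeR). LMNB1 went from 10961, 10785 and 10886 to 8254, 8205 and 7941 normalized counts, which is again -0.42 on the log2 scale (SE 0.0318, adjusted p = 9.00e-08 by edgeR). LMNB2, the other B-type lamin, was at 12292.5, 12230.5 and 12661 at D0 and at 12975, 12597.5 and 12396 at D6. Its libraries overlapped and its log2 fold change of 0.03 (SE 0.0371) did not pass the test, although with the correction for length and GC content it was 0.13 and called.

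Of the 4 genes for membrane proteins that tether chromatin, LBR, TMPO and EMD rose in these WT cells, as did BANF1, and LEMD3 was not called. Counts per gene do not separate the transcripts of a gene, of which TMPO has 13 annotated. LBR, which binds B-type lamins and the heterochromatin protein HP1 and is also a sterol reductase, had normalized counts of 10519, 10474 and 10475 in WT at D0 and of 15769, 15378 and 16028 at D6. All D6 libraries were higher, with a 1.5-fold rise (log2 0.58, SE 0.0503, adjusted p = 3.08e-07 by edgeR). TMPO encodes the lamina-associated polypeptide LAP2, of the LEM domain family that binds BANF1. It went from 13620, 12868 and 13301 to 21301.5, 21085 and 20780 normalized counts, a 1.59-fold rise (log2 0.67, SE 0.0413, adjusted p = 1.36e-08 by edgeR), the smallest adjusted p among the 10 genes in WT. BANF1 rose 1.43-fold, from 3045, 3062 and 3124 to 4437, 4516 and 4276 normalized counts (log2 0.52, SE 0.0468). Its reads are less certain than those of the others, since 5 pseudogenes named after BANF1 were counted as separate genes, and TMPO has 2 such copies. EMD, which encodes emerin, another LEM domain protein, rose less (log2 0.28, SE 0.0484, adjusted p = 0.000184 by edgeR), from 2583 to 2815 normalized counts at D0 and from 3220 to 3494 at D6. LEMD3, whose product MAN1 also binds receptor-regulated SMADs, had 1937 to 2006 normalized counts at D0 and 1856 to 1992 at D6, and its log2 fold change of -0.04 (SE 0.0444) did not pass the test.

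Of the SUN proteins, which anchor the bridge to the cytoskeleton, SUN2 had the largest rise of the 10 genes in WT cells of the BAZ1B experiment. Its normalized counts were 1047, 1079 and 1131 at D0 and 1915, 1961 and 2009 at D6, a 1.81-fold rise (log2 0.85, SE 0.0587, adjusted p = 3.68e-08 by edgeR). SUN1 rose 1.39-fold, from 1996, 2070 and 2285 to 2934, 2944 and 2977 normalized counts (log2 0.48, SE 0.0573, adjusted p = 7.19e-06 by edgeR). All D6 libraries were above all D0 libraries for both genes. Exons of SUN1 overlap those of GET4 on the same strand over 15.5% of their length, and exons of SUN2 overlap those of GTPBP1 on the opposite strand over 13.6%, so that some of their reads cannot be assigned with certainty. SUN2 made up 30.4 ± 0.671% of the summed SUN1 and SUN2 FPKM at D0 and 36.1 ± 0.386% at D6.

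**Figure D2:**
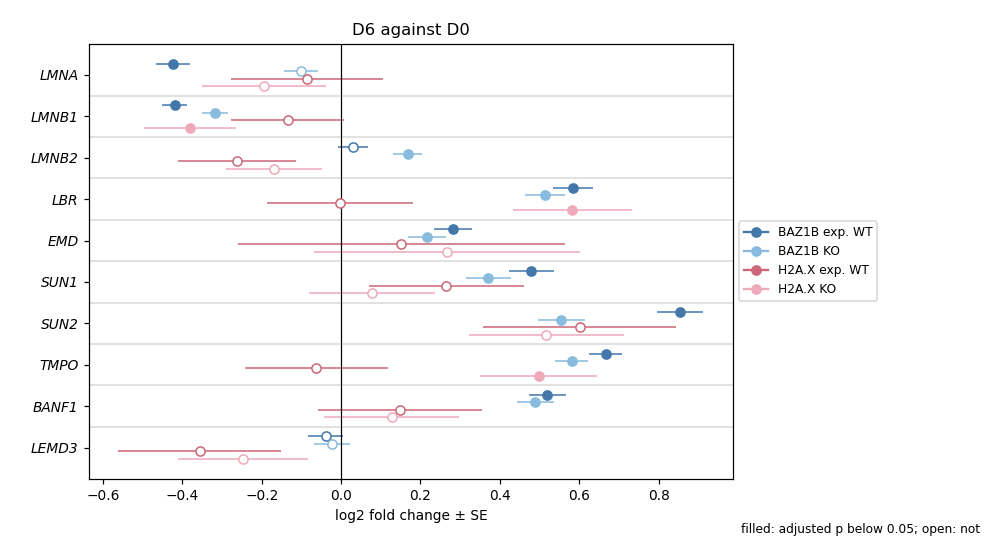
Log2 fold change of D6 against D0 (horizontal axis, bars ± SE) for each gene in WT and KO of both experiments, filled where the adjusted p was below 0.05. In BAZ1B-experiment WT, LBR, TMPO, EMD, BANF1, SUN1 and SUN2 lie to the right of 0 and LMNA and LMNB1 at -0.42; no point of H2A.X-experiment WT is filled.

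Promoter windows are shown for genes with changes between days, for the GATA box, the binding sequence of the erythroid factor GATA1, and for the CCAAT box, a common promoter element bound by NF-Y. In RefSeq's promoter table (GRCh38.p14), 9 of the 10 genes matched, with 15 annotated starts, and the 250 bases before each start were searched on both strands. The letters GATAA were in 4 of the 15 windows, those of 3 genes, LBR, TMPO and LMNB1. The first 2 of these genes rose and the last fell in WT of the BAZ1B experiment. Of the 35116 promoters of the table, 20.4% held the letters. They are printed with the motif in capitals, 5′ to 3′ on the strand of the gene (all in lower case otherwise); in TMPO the box is on the other strand and reads TTATC.
LBR, chr1:225428926-225428946, minus strand: aactaaccGATAAtgaaaact
LMNB1, chr5:126776419-126776439, plus strand: ttttctgtGATAAtctatcgg
TMPO, chr12:98515373-98515393, plus strand: cctgtcccTTATCggcgtcta
The letters CCAAT were in 7 of the 15 windows, those of 6 genes, EMD, LEMD3, LMNA, LMNB1, SUN2 and TMPO, beside 32% of all promoters. For EMD, SUN2 and TMPO, which rose in WT of the BAZ1B experiment, the copy nearest to a start is shown.
EMD, chrX:154379172-154379192, plus strand: gccgctagCCAATcctcgcgt
SUN2, chr22:38756043-38756063, minus strand: gggcctgaCCAATgggctgcg
TMPO, chr12:98515550-98515570, plus strand: gtcgcccgCCAATggcggcgc
The cell cycle element TTTGAA, searched in the same way, was in the windows of LMNB2 and SUN2, beside 13.3% of all promoters. A match is a run of letters and no measure of binding.

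In BAZ1B KO cells the D6 against D0 changes were called in the same direction as in WT for LMNB1 (log2 -0.32, SE 0.0317), LBR (0.51, SE 0.0503), TMPO (0.58, SE 0.0413), EMD (0.22, SE 0.0483), BANF1 (0.49, SE 0.047), SUN1 (0.37, SE 0.0574) and SUN2 (0.55, SE 0.059). LMNA, at 20515 to 21989 normalized counts at D6 after 22220 to 23599 at D0, had a D6 over D0 change of -0.10 on the log2 scale (SE 0.0436, adjusted p = 0.0555 by edgeR), although all D6 libraries lay below all D0 libraries, and groups did not overlap for 68.0% of all genes. It was called in 4 of 21 alternatives, under upper-quartile normalization and without WT D6 replicate 1, KO D0 replicate 2 or KO D6 replicate 2. LMNB2 was called up in the KO (log2 0.17, SE 0.0371, adjusted p = 0.00135 by edgeR). The replicate numbers paired D0 with D6 for KO replicates 1 and 2 (correlations of deviations 0.591 and 0.645) and less for replicate 3 (0.167). A term for the subclone, taken from these numbers, left all 8 calls in place.

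The next question was what loss of BAZ1B did to these genes before and during maturation. At D0 none of the 10 genes was called by edgeR, beside 3.88% of all genes. Beside 2131 of all 13879 genes, 1 of the 10 had an unadjusted p below 0.05. This was EMD, with 3040, 3159 and 3053 normalized counts in KO and 2815, 2807 and 2583 in WT (log2 0.17, SE 0.0484, adjusted p = 0.0743 by edgeR). Its KO libraries were all above its WT libraries, beside 22.5% of all genes without overlap, and DESeq2 called this gene alone. At D6, 3 of the 10 genes were called, 2 up and 1 down, beside 12.8% of all genes, 6.87% up and 5.97% down. LMNA had 21613, 21989 and 20515 normalized counts in KO and 18191, 16676 and 16997 in WT. All KO libraries were higher, 1.24-fold on average (log2 0.31, SE 0.0437, adjusted p = 0.000621 by edgeR), beside 30.8% of all genes without overlap. SUN2 had 1651, 1768 and 1590 in KO and 1915, 1961 and 2009 in WT, all KO libraries lower, with a fold of 0.851 (log2 -0.23, SE 0.058, adjusted p = 0.0186 by edgeR). This call was lost in 3 of 12 fits that left out 1 library each, those without WT D6 replicate 2, WT D6 replicate 3 or KO D6 replicate 3. LMNB1 was at 8650 to 8944 in KO and 7941 to 8254 in WT (log2 0.11, SE 0.0318, adjusted p = 0.0462 by edgeR), a call that was lost in 11 of those 12 fits and held without KO D0 replicate 1.

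The difference between the BAZ1B KO effects at D6 and at D0 was called for 1 of the 10 genes, LMNA (log2 0.32, SE 0.0616, adjusted p = 0.0185 by edgeR), beside 2.47% of all genes in either direction and 1.58% up. Its KO over WT log2 fold change was -0.02 at D0 (SE 0.0435) and 0.31 at D6, so that the fall of LMNA seen in WT was smaller in the KO. The call was lost without WT D0 replicate 1, WT D0 replicate 3, WT D6 replicate 2 or WT D6 replicate 3, with a log2 difference between 0.29 and 0.36 whichever library was left out. SUN2 had a difference of -0.30 (SE 0.083, adjusted p = 0.0864 by edgeR), which DESeq2 called.

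CASP6, which encodes the caspase that cleaves lamin A, moved with LMNA in this experiment. It had 1573, 1565 and 1511 normalized counts in WT at D0 and 946, 945 and 803 at D6, and 1528, 1492 and 1423 in KO at D0 and 1149, 1177 and 1200 at D6. It fell in both genotypes, by 0.79 on the log2 scale in WT and by 0.33 in KO, and the KO effect was larger at D6 than at D0 by 0.45 on the log2 scale (SE 0.0872, adjusted p = 0.0189 by edgeR). Whether the CASP6 transcript bears on that of LMNA was not tested.

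In the H2A.X experiment the maturation of WT cells gave few calls. None of the 10 genes was called between D0 and D6 in WT (n = 2), beside 2.0% of all genes. 1 of them, SUN2, had an unadjusted p below 0.05, beside 2796 of all 13236 genes, and DESeq2 called none. SUN2 had 485 and 427 normalized counts at D0 and 620 and 766 at D6 (log2 0.60, SE 0.243, adjusted p = 0.197 by edgeR). TMPO, at 7621 and 7120 at D0 and 7212 and 6904 at D6, had a log2 fold change of -0.06 (SE 0.181). LBR had 5091 and 5046 normalized counts at D0 and 5032 and 5088 at D6, with an SE of 0.184 on the log2 scale. LMNA (log2 -0.086) and LMNB1 (log2 -0.13), which fell in WT of the BAZ1B experiment, were not called here. The experiments were fitted separately, and their changes between days were not tested against each other.

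In H2A.X KO cells, 2 of the 10 genes rose and 1 fell from D0 to D6, beside 30.9% of all genes called, 14.8% up and 16.1% down. LBR had 5694, 6009 and 5951 normalized counts at D0 and 7937, 10933 and 7559 at D6, a 1.5-fold rise (log2 0.58, SE 0.15, adjusted p = 0.0154 by edgeR). TMPO had 8133, 7682 and 8128 at D0 and 10644, 13665.5 and 9491 at D6 (log2 0.50, SE 0.148, adjusted p = 0.0281 by edgeR). For both genes all D6 libraries were above all D0 libraries, beside 48.8% of all genes without overlap, and replicate 2 was the highest at D6. LMNB1 went down from 5078, 4791 and 5114 to 3711, 3946 and 3857 (log2 -0.38, SE 0.116, adjusted p = 0.0315 by edgeR). A term for the subclone, which the replicate numbers mark in the KO, left these 3 calls in place. None of the 3 was called without KO D0 replicate 1, 2 or 3. LMNB1 was not called without KO D6 replicate 1, and neither LMNB1 nor TMPO without KO D6 replicate 2. SUN2 (log2 0.52, SE 0.196, adjusted p = 0.0698 by edgeR) was called in 4 of 19 alternatives, under the correction for length and GC content without and with the replicate block and without KO D6 replicate 1 or 3.

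Loss of H2A.X itself was examined in the same way. At D0, LMNA and BANF1 were lower and LMNB1 and LEMD3 higher in KO, which makes 4 calls among 10 genes beside 35.1% of all genes (18.4% up and 16.7% down). At D6, LMNA and BANF1 were lower and LBR, TMPO and LEMD3 higher, which makes 5 calls beside 43.1% (22.2% up and 20.9% down). The share called among the 10 genes was thus near that of all genes at both days. LMNA had 12156 and 15163 normalized counts in WT at D0 and 8732, 7481 and 7567 in KO, a fold of 0.58 (log2 -0.79, SE 0.173, adjusted p = 0.0103 by edgeR). At D6 it had 12200 and 13534 in WT and 7028, 5789 and 7957 in KO, a fold of 0.538 (log2 -0.89, SE 0.173, adjusted p = 0.00476 by edgeR). KO replicate 3 at D6, the KO library whose name lacks the word Redo, was at 7957. A single library cannot separate that word from the genotype, and its part in the result was not tested. Every KO library was below every WT library at both days, beside 70.3% of all genes without overlap at D0 and 63.3% at D6. When library-specific trends with length and GC content were removed, the difference was smaller and still called, at -0.64 and -0.54.

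LEMD3, the gene for MAN1, had 619 and 470 normalized counts in WT and 950, 968 and 961 in KO at D0, and 482 and 367 in WT and 869, 874 and 683 in KO at D6. All KO libraries were higher at both days, with folds of 1.76 (log2 0.82, SE 0.188, adjusted p = 0.0117 by edgeR) and 1.90 (log2 0.93, SE 0.191, adjusted p = 0.00557 by edgeR). Both calls held under the correction for length and GC content. LBR was called at D6, with 5032 and 5088 in WT and 7937, 10933 and 7559 in KO (log2 0.80, SE 0.172, adjusted p = 0.00627 by edgeR), and had a log2 fold change of 0.22 (SE 0.168) at D0. The LBR call at D6 also held under that correction. TMPO was also called at D6, with 7212 and 6904 in WT and 10644, 13665.5 and 9491 in KO (log2 0.67, SE 0.168, adjusted p = 0.0108 by edgeR), but not with the correction for length and GC content, where it was 0.38. LMNB1 was called at D0, with 3613 and 3670 in WT and 5078, 4791 and 5114 in KO (log2 0.46, SE 0.131, adjusted p = 0.024 by edgeR), a call that was lost when any 1 of these 5 libraries was left out.

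BANF1 was the other gene that was lower in H2A.X KO, and the only one of the called genes whose direction depended on the correction. It had 1908 and 2679 normalized counts in WT and 1212, 1359 and 1329 in KO at D0 (log2 -0.82, SE 0.187, adjusted p = 0.0113 by edgeR), and 2165 and 2920 in WT and 1263, 1432 and 1566 in KO at D6 (log2 -0.84, SE 0.187, adjusted p = 0.00704 by edgeR). Its longest transcript, of 1135 bases, is the shortest among the 10 genes. With the correction for length and GC content the log2 fold change was -0.13 at D0 and 0.21 at D6, and neither was called.

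All these H2A.X calls rest on few WT libraries. None of the 10 genes was called at D0 without WT D0 replicate 2, or at D6 without WT D6 replicate 2, each of which left 1 WT library at that day. The difference between the H2A.X KO effects at D6 and D0 was called by edgeR for none of the 10 genes, beside 1.34% of all genes. LBR (log2 0.58, SE 0.237) and TMPO (0.56, SE 0.233) were the 2 with an unadjusted p below 0.05, beside 2016 of all 13236 genes. DESeq2 called none of the 10. That LBR and TMPO passed the test at D6 and not at D0 therefore does not show that the effects differ.

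**Figure D3:**
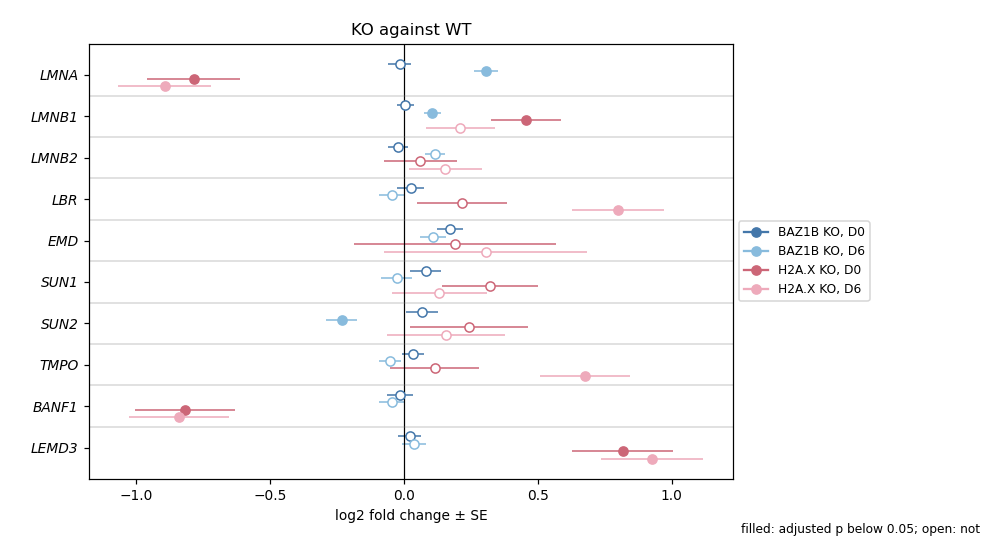
Log2 fold change of KO against WT (horizontal axis, bars ± SE) for each gene at D0 and D6 in both experiments, filled where the adjusted p was below 0.05. The H2A.X points spread from -0.89 (LMNA at D6) to 0.93 (LEMD3 at D6), and the BAZ1B points from -0.23 (SUN2 at D6) to 0.31 (LMNA at D6).

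EMD, on the long arm of chromosome X (GRCh38, 154379273 to 154381574), differed among the H2A.X KO subclones more than between KO and WT. Its normalized counts in KO replicates 1, 2 and 3 were 2398, 1131 and 1146 at D0 and 2799, 1555 and 1271 at D6, against 1291 and 1441 in WT at D0 and 1468 and 1568 at D6. KO replicate 1 was above all other libraries of its day at both days, and KO against WT was not called (log2 0.19, SE 0.378 at D0 and 0.31, SE 0.379 at D6). Without KO replicate 1 of the same day the log2 fold change was -0.26 at D0 and -0.11 at D6. With the correction for length and GC content EMD was higher in KO by 0.87 at D0 and by 1.38 at D6, the latter a call.

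The genes around EMD, which were looked at after these values had been seen, stood apart in the same subclone. Of 43 genes within 15 Mb of EMD with a mean of at least 5 CPM (counts per 1e6), all 43 were higher in KO replicate 1 than in the mean of replicates 2 and 3 at D0, with a median log2 ratio of 1.10, and all 43 at D6, with a median of 0.963. The last of these genes towards the end of the long arm is TMLHE, 1.22 Mb after EMD. Of 30 genes between 15 and 30 Mb before EMD, the last of which is RBMX, 15 were higher at D0 (median 0.0232) and 19 at D6 (median 0.0461). Over all 9473 genes at that level the median was -0.00049 at D0 and -0.0105 at D6. The log2 ratio of EMD itself was 1.07 at D0 and 0.985 at D6, close to the median of its neighbours. Against the mean of WT, KO replicate 1 was not higher for every gene. Within 4 Mb of EMD that log2 ratio ranged from -0.345 to 3.51 at D0 and from -0.925 to 2.095 at D6. For EMD it was 0.811 and 0.882. No test was made of why the stretch was higher. For LMNA, by comparison, the 18 neighbours within 500 kb had a median log2 KO over WT of 0.0358 at D0 and 0.0836 at D6 in the H2A.X experiment, beside -0.79 and -0.89 for LMNA itself. Around BANF1, which was also lower in H2A.X KO, the 30 neighbours had a median of -0.43 at D0, with 23 of them below 0, and of -0.42 at D6, with 22 below 0. The 2 neighbours of LEMD3 had a median of 0.615 at D0 and -0.55 at D6.

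**Figure D4:**
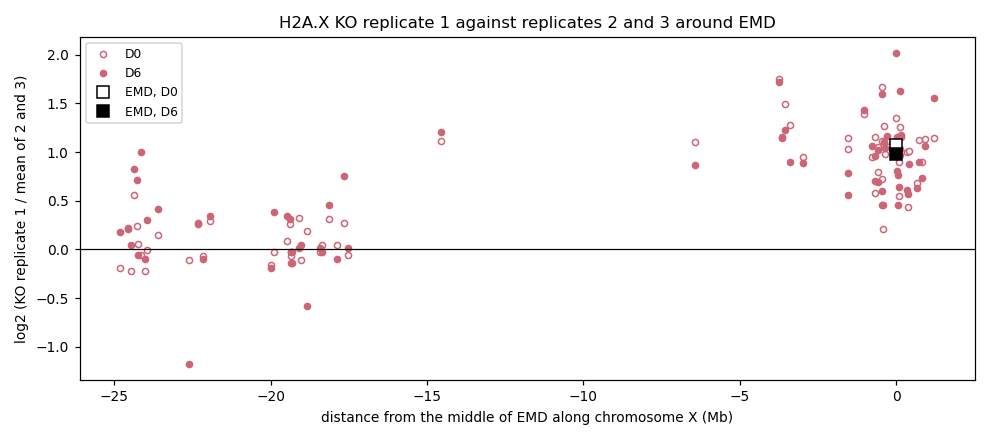
Log2 ratio of H2A.X KO replicate 1 to the mean of KO replicates 2 and 3 (vertical axis) for genes within 30 Mb of EMD along chromosome X (horizontal axis, distance in Mb), open at D0 and filled at D6, with EMD as squares. All 43 genes within 15 Mb of EMD lie above 0 at both days, while the 30 genes farther before it scatter around 0.

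The share of each lamin was also computed within a library. LMNA held 65.7 ± 3.99% of the summed lamin FPKM in WT of the H2A.X experiment at D0 (n = 2) and 47.8 ± 2.43% in H2A.X KO (n = 3), and 67.5 ± 3.91% and 49.4 ± 4.49% at D6. LMNB1 made up 18.3 ± 1.55% in WT and 31.4 ± 0.877% in KO at D0. The KO shares of LMNA lay below all WT shares at both days. In the BAZ1B experiment (n = 3) the LMNA share was 52.5 ± 0.5% in WT and 52.3 ± 0.828% in KO at D0. At D6 it was 48.5 ± 0.862% in WT and 51.9 ± 0.366% in KO, where the shares did not overlap. LMNB2 went from 21.9 ± 0.363% to 27.7 ± 0.31% in WT between D0 and D6, and the summed lamin level from 325 ± 5.92 to 262 ± 8.15 FPKM. The shares depend on the length used: divided by the union of annotated exons, LMNA held 48.3 ± 4.37% in WT and 30.7 ± 2.06% in KO of the H2A.X experiment at D0.

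**Figure D5:**
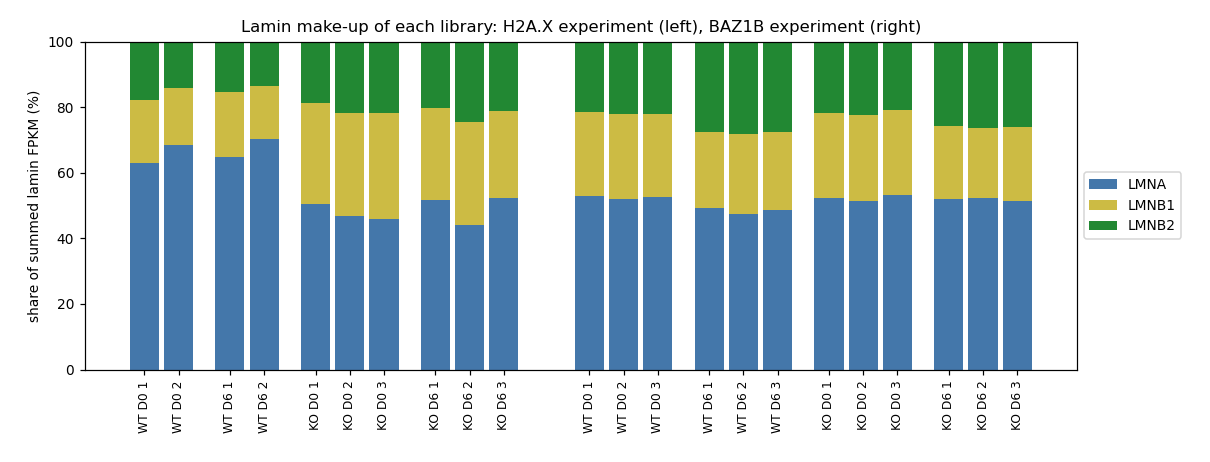
Share of LMNA, LMNB1 and LMNB2 in the summed lamin FPKM (vertical axis, percent, 0 to 100) in each library, 1 bar per library, H2A.X experiment left and BAZ1B experiment right. The LMNA share is above 60% in the 4 H2A.X WT libraries and below 55% in all other libraries.

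Other genes of the envelope, from a list of 38 (35 tested in the H2A.X experiment, 36 in the other), moved in both directions. In WT cells of the BAZ1B experiment 11 of 36 rose and 17 fell from D0 to D6, beside 33.5% of all genes up and 35.4% down, with a median log2 fold change of -0.12 beside 0.38 for the 10 lamina genes. SYNE3, which encodes a nesprin, rose (log2 1.86, SE 0.0951, adjusted p = 2.28e-09 by edgeR), and it was called up in BAZ1B KO (2.01) and in H2A.X KO (1.79) as well. Both kinases that release BANF1 from DNA rose in WT, VRK1 by 0.53 and VRK2 by 0.86 on the log2 scale, as did ANKLE1, a LEM domain nuclease, by 1.07. The inner membrane protein genes NRM and TMEM201 fell by 1.07 and 1.09, and ZMPSTE24, the protease that matures prelamin A, fell by 0.48. Of the HP1 genes, CBX5 (0.93) and CBX3 (0.26) rose and CBX1 fell by 0.37. CHMP2A (0.86) and VPS4A (0.91), of the ESCRT machinery that seals the envelope, rose, and VPS4B fell by 0.53.

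Between BAZ1B KO and WT at D6, 4 of the 36 other envelope genes were higher and 2 lower, beside 12.8% of all genes called. The lower ones were ANKLE1 (log2 -0.35, SE 0.0548, adjusted p = 0.0012 by edgeR) and SYNE1, for which KO libraries held 2 to 3 and WT libraries 10 to 19 normalized counts. At D0 edgeR called none of them, beside 3.88% of all genes, and DESeq2 called 1. Of the 36, 8 had an unadjusted p below 0.05, beside 2131 of all 13879 genes. Between H2A.X KO and WT, 4 of 35 were higher and 6 lower at D0, beside 35.1% of all genes called, and 7 higher and 8 lower at D6, beside 43.1%. These counts are no larger a part of the list than of all genes. VPS4A was lower at both days (log2 -1.06, SE 0.214 and -1.11, SE 0.212), as was CHMP2A (-1.27, SE 0.256 and -1.0, SE 0.255). SPAST, of the same ESCRT list, was higher at D6 (0.85, SE 0.185). CBX5 was higher at both days (0.86, SE 0.257 and 1.24, SE 0.261) and SYNE3 at D6 (1.74, SE 0.322). SYNE1 was higher at D0 (3.34, SE 1.06), with 55 to 200 normalized counts in KO and 6 to 16 in WT.

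Markers of proliferation and of other cell types were measured beside the lamina genes. All 10 proliferation markers rose from D0 to D6 in WT of the BAZ1B experiment (median log2 0.49), among them CDK1 (1.07) and CCNA2 (0.75), beside 33.5% of all genes up. In BAZ1B KO 8 rose, beside 33.2%, and in H2A.X KO 4, beside 14.8%. In H2A.X-experiment WT, with 2.0% of all genes called, neither edgeR nor DESeq2 called any of these markers. There 1 marker had an unadjusted p below 0.05, beside 2796 of all 13236 genes. Between H2A.X KO and WT, 2 were higher and 3 lower at D0, beside 35.1% of all genes called, and 3 higher and 3 lower at D6, beside 43.1%. Between BAZ1B KO and WT edgeR called none at D0, beside 3.88%, and 1 had an unadjusted p below 0.05, beside 2131 of 13879 genes. At D6 MKI67 (log2 -0.26, SE 0.0481) and CDK1 (-0.23, SE 0.0354) were lower, beside 5.97% of all genes down. The BAZ1B KO effect on CDK1 differed between days (-0.21, SE 0.0504), beside 2.47% of all genes called. Erythroid markers summed to 6193 to 6917 CPM at D0 and 36700 to 41880 at D6 in WT of the BAZ1B experiment, and to 22570 to 30180 and 35130 to 58200 in WT of the H2A.X experiment. In H2A.X KO they summed to 11820 to 15620 CPM at D0, below both WT libraries, and to 41520 to 68700 at D6. Of the 11 erythroid markers, 8 were called lower in H2A.X KO than in WT at D0 (median log2 of the list -1.10), beside 16.7% of all genes down. At D6 1 was higher and 1 lower, beside 22.2% of all genes up and 20.9% down. In BAZ1B KO the sums were 7288 to 7788 CPM at D0 and 31110 to 36610 at D6. Against WT, 1 marker was higher and 3 lower at D0, beside 3.88% of all genes called in either direction. At D6 4 were lower, beside 5.97% of all genes down. The 8 mast cell and eosinophil markers moved with day and genotype: their sum was 467 to 508 CPM in BAZ1B WT at D0 and 30 to 40.8 at D6. It was 104 to 140 CPM in H2A.X WT and 209 to 419 in H2A.X KO at D0, and 145 to 232 and 3.08 to 13.5 at D6. The part of these other markers in the lamina gene results was not tested.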

How the data were processed

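RNA-Seq counts of 22 HUDEP-2 libraries were analysed. The authors deposited unnormalized counts per gene, 1 column for each library; the submitters' processing notes name STAR 2.7.0f, Subread 1.6.4 with featureCounts, DESeq2 1.22.1 and hg38. The methods name a stranded and the labels an unstranded mRNA kit, which bears on genes that overlap on opposite strands. No column of per-sample values was left out (0 columns). Replicates are described as subclones of 1 line, and p values measure the spread between replicates. In BAZ1B-experiment WT the replicate numbers hardly paired D0 with D6 (correlations of deviations 0.132, 0.0477 and 0.18). Whether these WT replicates are separate subclones was therefore not settled.

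With edgeR 4.0.16 in R 4.3.3, each table was filtered by filterByExpr (minimum count 10, minimum total 15), normalized by TMM and fitted with 1 coefficient per genotype and day, no covariates, on all libraries of the experiment. Tests are two-sided quasi-likelihood tests with Benjamini-Hochberg adjustment over 13236 (H2A.X) or 13879 (BAZ1B) genes. The biological coefficients of variation were 0.239 and 0.0865. Normalized counts were scaled to the mean TMM-adjusted library size of the experiment. FPKM use GENCODE 44 transcript lengths. Reads carried no molecular identifiers, so copies from amplification cannot be told from separate molecules. No pair of libraries agreed within sampling noise.

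The members, lists and tests were chosen with earlier results of these data known. All 10 members are named, and from each other list at most 2 called genes per direction and comparison with the largest change (lists of 3 or fewer genes whole), and both knockout targets; SYNE1, TMLHE and RBMX were named after their values were seen. Results of 2 other genes are not reported here. Alternatives were DESeq2 1.42.0, upper-quartile normalization, TMM without globin genes, no filter, the compared groups alone, a term for the replicate number or subclone, a correction for length and GC content (mgcv 1.9.3), and leaving out each library. Samples with the same replicate number deviated together in H2A.X KO (correlations of deviations 0.599, 0.436 and 0.301) and in BAZ1B KO replicates 1 and 2 (0.591 and 0.645). In BAZ1B KO replicate 3 the value was 0.167, near those of BAZ1B WT. In H2A.X WT, with 2 replicates, it was 0.474. Between WT and KO of the same number it was 0.198 and 0.211 at H2A.X D6, and from -0.0573 to 0.169 elsewhere. The numbers were taken to mark subclones in the KO, and whether they pair WT with KO was not settled. Counts of other envelope genes and proliferation markers under the alternatives, and the genes around EMD, were added after the data were seen. The procedure was tested on simulated data.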

Additional observations from a re-analysis of the deposited data

Results flagged for a closer look

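The effect of BAZ1B KO on LMNA differed between days: the log2 ratio of KO to WT was larger at D6 than at D0 by 0.32 (adjusted p = 0.0185 by edgeR's interaction term), with all 3 KO libraries above all 3 WT libraries at D6 and overlap at D0. The following differences between the 2 experiments were not tested, since the tables were normalized separately and share no libraries. In the H2A.X experiment all D6 libraries of LMNB2 lay below the D0 mean of their genotype and in the BAZ1B experiment all lay above it. In BAZ1B WT they were above by only 0.066, 0.023 and 0.00017 on the log2 scale. LMNB2 was not called between days in WT of either experiment. The mean log2 changes differed by -0.29 between the WT groups and by -0.34 between the KO groups. TMPO at D6 was below its D0 mean in both H2A.X WT libraries and above it in all 3 BAZ1B WT libraries, a difference of -0.73. At D6 every H2A.X KO library was below the WT mean for LMNA and every BAZ1B KO library above it, a difference of -1.21 in mean log2 KO over WT. For TMPO the H2A.X KO libraries were above and the BAZ1B KO libraries below the WT mean at D6, a difference of 0.71. Groups of 2 or 3 libraries are too small for a test of single outlying libraries.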

How the results depend on the processing

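Of the 8 and 8 lamina gene calls between D6 and D0 in BAZ1B-experiment WT and KO, 8 to 8 and 8 to 9 were found when any 1 library was left out, and no alternative moved these counts by over 1.5 times. Leaving out 1 library gave 0 to 4 calls for H2A.X KO against WT at D0 (0 without WT D0 replicate 2), 0 to 5 at D6 (0 without WT D6 replicate 2), 0 to 4 for D6 against D0 in H2A.X KO, 0 to 0 in H2A.X WT and for the H2A.X interaction, 0 to 1 for BAZ1B KO against WT at D0 (1 without KO D6 replicate 1), 1 to 3 at D6 and 0 to 2 for the BAZ1B interaction (2 without KO D0 replicate 1 or KO D6 replicate 2). Upper-quartile normalization, DESeq2 and no filter each called 1 gene at BAZ1B D0. DESeq2 and the length and GC correction, with and without a replicate block, called 2 in the BAZ1B interaction. The correction with the block called 3 at H2A.X D6, where LMNA, at -0.56, was no longer called. Of the lamina gene calls, a replicate block alone ended 1, LMNB1 at BAZ1B D6 (0.11). There the correlations of deviations between WT and KO of the same number were -0.0573, -0.0481 and 0.169. Upper-quartile normalization shifted the median of all genes by -0.11 at H2A.X D6.

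Signs of changes that were not called turned as follows, with log2 values. For H2A.X KO against WT, LMNB2 at D0 was -0.018 under upper-quartile normalization and -0.00962 under the correction with the replicate block, TMPO at D0 was -0.032 under the correction, and SUN1 at D6 was -0.051 and -0.12 under the correction without and with the block. BANF1 at D6, a call, turned to 0.21 and 0.19 under these. In H2A.X WT between days, LBR was 0.0052 under upper-quartile normalization and 0.059 and 0.059 under the correction without and with the block, EMD -0.22 and -0.23, TMPO 0.024 and 0.025, and BANF1 -0.27 and -0.26. In the H2A.X interaction LMNA was 0.099 and 0.077, SUN2 0.010 without the block, BANF1 0.34 and 0.34 (0.033 with no filter) and LEMD3 -0.019 and -0.020. In the BAZ1B interaction BANF1 was 0.019 and 0.019, and LEMD3 -0.014 under upper-quartile normalization and -0.0044 and -0.0047 under the correction. The cause was not tested.

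Leaving out 1 library turned further signs, none of them of a called gene. For H2A.X KO against WT, EMD ranged from -0.26 to 0.38 at D0 and from -0.11 to 0.55 at D6, and SUN2 from -0.11 to 0.35 at D6. In H2A.X WT between days LMNA ranged from -0.25 to 0.071, LBR from -0.031 to 0.0014 and BANF1 from -0.11 to 0.40, and in H2A.X KO EMD from -0.14 to 0.72. In the H2A.X interaction LMNA ranged from -0.26 to 0.053, EMD from -0.29 to 0.56, SUN1 from -0.39 to 0.0055, SUN2 from -0.35 to 0.11, BANF1 from -0.27 to 0.25 and LEMD3 from -0.093 to 0.34. For BAZ1B KO against WT at D0 LMNA ranged from -0.039 to 0.0037, LMNB1 from -0.0064 to 0.0080, LBR from -0.032 to 0.077 and BANF1 from -0.061 to 0.0064. SUN1 ranged from -0.080 to 0.0049 at D6, LEMD3 from -0.039 to 0.012 between days in BAZ1B KO, and in the BAZ1B interaction BANF1 from -0.076 to 0.016 and LEMD3 from -0.012 to 0.045.

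For the other envelope genes, fitting the compared day alone gave 7 calls at H2A.X D6 and 3 at BAZ1B D6. In H2A.X WT between days DESeq2 and a block for replicate number gave 2, and no filter, a block for subclone and the correction with the block 3. The H2A.X interaction had 1 and the BAZ1B interaction 2 under DESeq2, no filter, the subclone block and the correction without and with the block. At BAZ1B D0 there were 1 under DESeq2 and the correction with the block, 3 with no filter and 2 with the replicate block. Without 1 library they were 0 to 12 and 0 to 18 for H2A.X KO against WT at D0 and D6, 0 to 1 and 4 to 12 between days in WT and KO, 0 to 1 for the interaction, and 0 to 2, 4 to 8, 27 to 29, 26 to 30 and 0 to 3 in the same order in the BAZ1B experiment. Proliferation markers called at H2A.X D0 were 1 under the correction and 3 with the block, at H2A.X D6 3 under the correction, and in the BAZ1B interaction 2 under upper-quartile normalization, DESeq2 and the subclone block. Without 1 library they were 0 to 6, 0 to 6, 0 to 0, 2 to 6 and 0 to 0, and 0 to 1, 2 to 2, 10 to 10, 8 to 9 and 0 to 3, in that order. Over the union of exons the SUN2 share rose by 6.39 percentage points between days in BAZ1B WT. The biological coefficient of variation was 0.239 in the H2A.X experiment, which has 2 WT replicates, and 0.0865 in the BAZ1B experiment, and no detection limit was computed.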
